A study of Mus musculus with 12 samples.

Results

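The Sprouty, Spred and dual-specificity phosphatase (Dusp) genes described here are 10 genes whose products restrain the kinase cascades below receptors: Spry1, Spry2, Spred1, Spred2, Dusp2, Dusp4, Dusp5, Dusp6, Dusp14 and Dusp22. Their members were all probe sets that the array annotation assigns to 1 of these genes and to no other gene, which gave 22 of the 45037 probe sets that are not controls. The 10 genes are among 9293 with a probe set above the filter on low values. RNA was measured on 12 one-colour Affymetrix arrays of B cells sorted from mouse spleen on B220, a surface protein that most B cells carry. The arrays fell into 4 groups of 3. Control cells were Foxp1wt/flox, with 1 wild-type and 1 conditional (flox) allele of the forkhead transcription factor gene Foxp1, and the other cells were Foxp1flox/del, with 1 conditional and 1 deleted (del) allele. These are called deleted cells below. All cells of all groups carried a flox allele, came from a mixed 129/Sv-C57BL/6 background and were incubated for 4 h, either with what the labels call IgM or without it. The sources used here do not give the age of the mice or the Cre that recombined the flox allele. They also do not say whether the 3 replicates of a group were separate animals. Any p-value refers to array-to-array spread alone, which may be technical in part.

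Engagement of the B cell receptor activates Ras and the kinases Raf, Mek and Erk, and in parallel the kinases Jnk and p38. Sprouty and Spred proteins act upstream, where they limit the activation of Ras and Raf, and many of their genes are themselves switched on by Erk signalling. The MAP kinase phosphatases Dusp2, Dusp4, Dusp5 and Dusp6 remove phosphate from the kinases directly, whereas Dusp14 and Dusp22 are small atypical members of the phosphatase family. Genes of this kind are usually read as negative feedback, since they are induced by the signal that they dampen.

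Promoter sequence was available for 9 of the 10 genes in a RefSeq table of assembly GRCm38.p6, which holds 250 bases before and 50 bases after each gene's start. Dusp4 had no entry. The sequences of Spry1 and Dusp14 are shown because these genes had the largest higher and the largest lower difference between the genotypes without IgM, and those of Spred2 and Dusp5 because they are the only ones of the 9 in which a searched motif was found. All are written 5′ to 3′ on the gene's own strand, with motif matches in capitals. The Spry1 window lies at chr3:37639697-37639996 on the plus strand, that of Dusp14 at chr11:84068308-84068607 on the minus strand, that of Spred2 at chr11:19924192-19924491 on the plus strand, and that of Dusp5 at chr19:53528895-53529194 on the plus strand.
Spry1: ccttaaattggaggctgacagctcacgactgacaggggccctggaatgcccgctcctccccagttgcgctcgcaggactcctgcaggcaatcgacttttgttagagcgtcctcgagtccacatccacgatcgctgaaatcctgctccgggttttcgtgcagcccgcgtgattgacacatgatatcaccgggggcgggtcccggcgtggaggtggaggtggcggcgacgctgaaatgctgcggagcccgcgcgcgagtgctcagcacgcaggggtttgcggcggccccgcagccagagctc
Dusp14: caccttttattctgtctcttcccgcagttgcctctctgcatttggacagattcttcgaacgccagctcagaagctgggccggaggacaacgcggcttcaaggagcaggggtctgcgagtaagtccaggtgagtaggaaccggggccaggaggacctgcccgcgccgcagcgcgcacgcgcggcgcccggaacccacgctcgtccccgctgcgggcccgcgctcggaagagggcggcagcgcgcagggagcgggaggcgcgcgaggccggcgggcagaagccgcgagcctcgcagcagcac
Spred2: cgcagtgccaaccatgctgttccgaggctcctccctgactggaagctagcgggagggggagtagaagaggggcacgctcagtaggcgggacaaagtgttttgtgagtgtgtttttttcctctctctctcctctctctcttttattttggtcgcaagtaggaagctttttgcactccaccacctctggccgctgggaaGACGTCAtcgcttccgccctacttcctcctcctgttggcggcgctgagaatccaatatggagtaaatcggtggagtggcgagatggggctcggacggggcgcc
Dusp5: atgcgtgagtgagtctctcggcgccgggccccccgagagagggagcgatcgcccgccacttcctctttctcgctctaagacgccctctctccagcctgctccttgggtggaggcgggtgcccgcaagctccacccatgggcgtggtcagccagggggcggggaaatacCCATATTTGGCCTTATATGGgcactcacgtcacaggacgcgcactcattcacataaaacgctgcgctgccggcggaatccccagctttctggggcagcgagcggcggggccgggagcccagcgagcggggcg

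Both strands of the 9 windows were searched for 6 motifs. The forkhead core GTAAACA, the letters that Foxp factors are known to favour, was in 0 of the 9 windows and in 3.65% of the 32851 promoters of the table. The AP-1 site TGANTCA was in 0 of 9 and in 7.81% of all promoters, and the ETS core CCGGAAG in 0 of 9 and in 8.86%. The CRE core TGACGTC, read by cAMP-responsive factors, was in 1 of 9 and in 3.21% of all. It stood in Spred2 on the reverse strand, 53 to 47 bases before the start. The CArG box, read by serum response factor, and the TATA box TATAAA were added to the search after the other motifs had been looked up. Dusp5 held 2 adjoining CArG boxes, at 82 to 73 and 72 to 63 bases before its start, and 1.63% of all promoters held at least 1. The TATA box was in 0 of 9 windows and in 13.6% of all promoters. The 9 windows were 57% to 79% G and C, against a median of 52.7% over all promoters. A match describes the letters only, and a missing match says nothing about the factor beyond this window.

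The array values are log2 signals from GCRMA with a common floor of 2.23 and a highest value of 15.79. Of the 22 probe sets, 16 passed the filter of a log2 value above 4 on at least 3 of the 12 arrays, with at least 1 passing for each of the 10 genes. The other 6, 2 of Spred1 and 4 of Spred2, lay between 2.23 and 3.25 on all arrays. Where a gene had several passing probe sets, the one with the highest mean over the 12 arrays stands for the gene. Spry1 passed through 6 arrays above 4, those of stimulated control and unstimulated deleted cells. Dusp14 passed through 8, those of control cells and of deleted replicates 1 and 2 with IgM. The remaining arrays of both genes lay near the floor, where differences are compressed. The arrays of deleted cells with IgM included 1, replicate 3, that stood apart from its group: its correlation with the group's other arrays was 0.837 and 0.884, against at least 0.948 between mates in the other groups. Its spiked poly-A control probe sets averaged 6.94, against 8.05 to 10.73 on the other 11 arrays. For the probe set that stands for each gene, log2 differences that use this array are given with and without it. Members' medians, counts of groups without overlap, similar patterns, other gene lists and markers are given only with it. Arrays with the same replicate number deviated together, so a fit that blocks on that number, with or without that array, is quoted where it makes a call that the main fit did not. Xist, a transcript of the inactive X chromosome, read 2.23 to 2.44 on the 4 arrays of replicate 1. It read 7.67 on deleted replicate 3 with IgM and 10.75 to 11.75 on the other arrays. The Y-linked Eif2s3y read 7.97 to 10.66 on all 12. By Xist, replicate 1 came from other source material than replicates 2 and 3, so the spread between arrays is not technical alone. Whether replicates 2 and 3 were separate animals is not shown by these values. The 8 Foxp1 probe sets did not separate the genotypes, with log2 differences of -0.29 to 0.13 without IgM and -0.30 to 0.32 with IgM, and adjusted p of at least 0.662. Where these probes lie relative to the deleted part is not known here, so the check of the deletion is void.

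After 4 h without IgM, 4 of the 10 genes differed between the genotypes: Spry1 and Spry2 were higher in deleted cells, and Dusp4 and Dusp14 were lower. With IgM, Dusp14 and Dusp22 were lower in deleted cells and no member was higher. IgM raised 5 genes in control cells, namely Spry1, Spred1, Dusp2, Dusp4 and Dusp22. In deleted cells it raised Spred1, Spred2 and Dusp4 and lowered Spry1. Spry1 was the only member whose response to IgM differed between the genotypes beyond the threshold.

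Calls are an adjusted p under 0.05 from limma, fitted on all 19187 passing probe sets with Benjamini-Hochberg adjustment over all of them. Without IgM the test called 2.03% of all probe sets (1.47% higher and 0.552% lower in deleted cells), against 4 of the 10 members. With IgM it called 1.19% (1.06% higher and 0.13% lower), against 2 members, both lower. The response to IgM reached far more of the array: 18.2% of probe sets in control cells (8.24% higher and 9.91% lower) against 5 members, and 17.0% in deleted cells (9.95% higher and 7.04% lower) against 4. For the interaction, which is the IgM response of deleted cells minus that of control cells, 0.099% of probe sets were called, all 19 of them negative, and 1 was the Spry1 probe set. The median log2 difference of the 10 members was -0.28 for the genotype without IgM and -0.46 with IgM, where all probe sets had -0.04 and 0.05. For the IgM response the members' median was 1.09 in control and 0.78 in deleted cells, against -0.01 and 0.02 over all probe sets. With no filter on low values, which tests 45037 probe sets, some of these calls were lost. They were Spry2 and Dusp14 between the genotypes without IgM (adjusted p = 0.0859 and 0.098), Dusp14 and Dusp22 with IgM (0.174 and 0.133), and Dusp2 with IgM in control cells (0.0776). Spred1 lost its call for IgM in control and in deleted cells (0.0636 and 0.0871), and Spry1 that for the interaction (0.0579). The genotype and IgM comparisons share groups, so a high value in 1 group enters several of them. A fit on 1 probe set a gene called 265 of 9293 between the genotypes without IgM. The members were chosen with earlier results of these data known. The shares and medians here and below therefore describe the members and do not test them as a set.

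**Figure D1:**
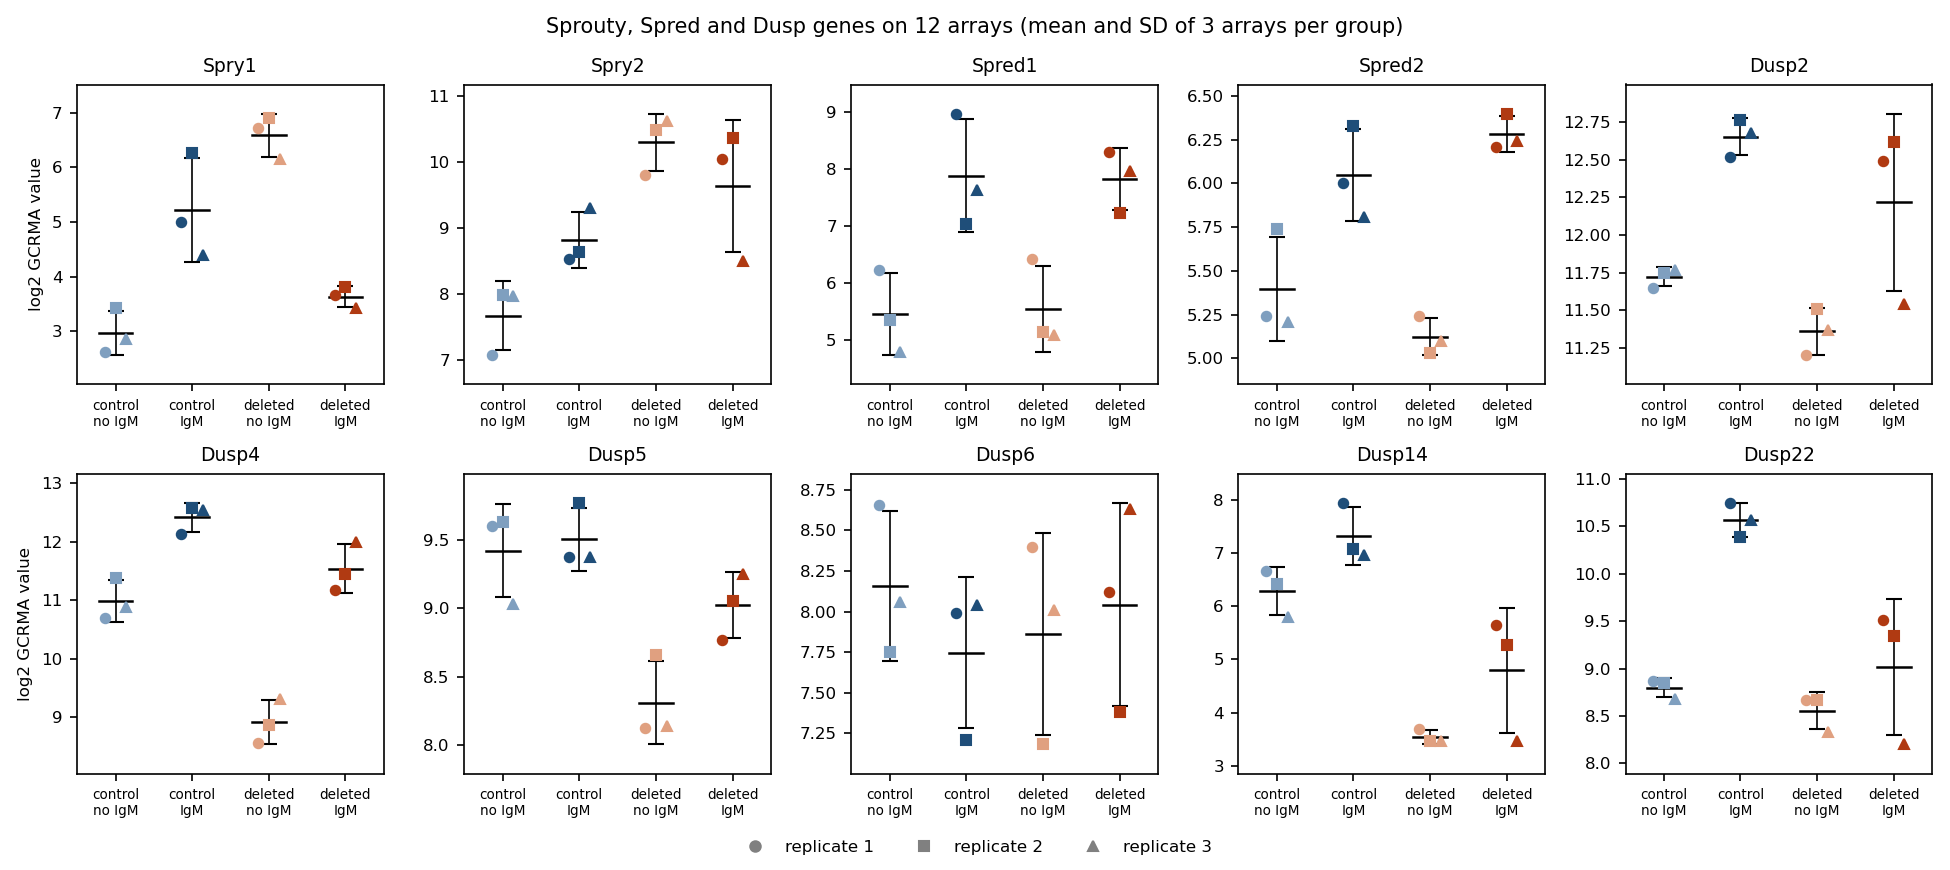
Log2 signal of the chosen probe set of each of the 10 genes on the 12 arrays, by group, with 1 point per array (symbols mark the replicate number), a line at each group's mean and error bars of 1 SD (n = 3). Each panel has its own axis. Spry1 reads 6.15 to 6.91 in deleted cells without IgM and no higher than 3.81 in deleted cells with IgM. Dusp14 reads 3.46 to 3.70 in deleted cells without IgM, below every control array.

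Spry1, which encodes a membrane-associated inhibitor of Ras activation, turned its response to IgM around with the genotype. In control cells without IgM its log2 signal was 2.62, 3.42 and 2.86 in replicates 1, 2 and 3, close to the floor, and with IgM it was 5.0, 6.26 and 4.40. In deleted cells it was 6.72, 6.91 and 6.15 without IgM and 3.67, 3.81 and 3.42 with IgM. The stimulated control arrays thus all lay above the unstimulated ones, and the order was opposite in deleted cells. The group means were 2.97 ± 0.41, 5.22 ± 0.95, 6.60 ± 0.39 and 3.64 ± 0.20 (SD, n = 3) in that order. Without IgM, Spry1 was 12.4-fold higher in deleted cells (log2 difference 3.63 ± 0.42, SE; adjusted p = 0.000965). IgM raised it 4.78-fold in control cells (2.26 ± 0.42, adjusted p = 0.00439) and lowered it 7.78-fold in deleted cells (-2.96 ± 0.42, adjusted p = 0.00123). The test of the difference between these responses gave a log2 value of -5.22 ± 0.60 (adjusted p = 0.00647). The 12.4-fold and 4.78-fold differences start from unstimulated control cells near the floor, which compresses them. The 7.78-fold fall ends at stimulated deleted arrays of 3.42 to 3.81, which also lie below the filter level of 4.

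Since stimulated and unstimulated arrays did not overlap in either genotype, the opposite directions necessarily held within every replicate number. Between the arrays of replicates 1, 2 and 3, the IgM response of Spry1 was 2.38, 2.84 and 1.55 log2 units in control cells. The deleted pairs gave -3.05, -3.10 and -2.74. With IgM, Spry1 was below control in all 3 pairs, by -1.33, -2.45 and -0.98. That difference, -1.59 ± 0.42, was not called (adjusted p = 0.122) but was called with the replicate block (adjusted p = 0.0151). Without deleted replicate 3 with IgM it was -1.48 (adjusted p = 0.234), the fall with IgM in deleted cells was -2.85 (adjusted p = 0.00315) and the interaction was -5.11 (adjusted p = 0.019). The interaction stayed called in each of the 12 fits that left out 1 array. It was not called with no filter on low values, at the same size (adjusted p = 0.0579), nor in any of the 3 fits that left out all arrays of a replicate number, where its size was -5.68 to -4.85 and the adjusted p 0.11 to 0.672. Leaving out all arrays of replicate 1 also ended the calls for the genotype without IgM (adjusted p = 0.114) and for IgM in deleted cells (adjusted p = 0.0517), and leaving out those of replicate 1 or of replicate 2 ended the call for IgM in control cells (adjusted p = 0.0545 to 0.0999).

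**Figure D2:**
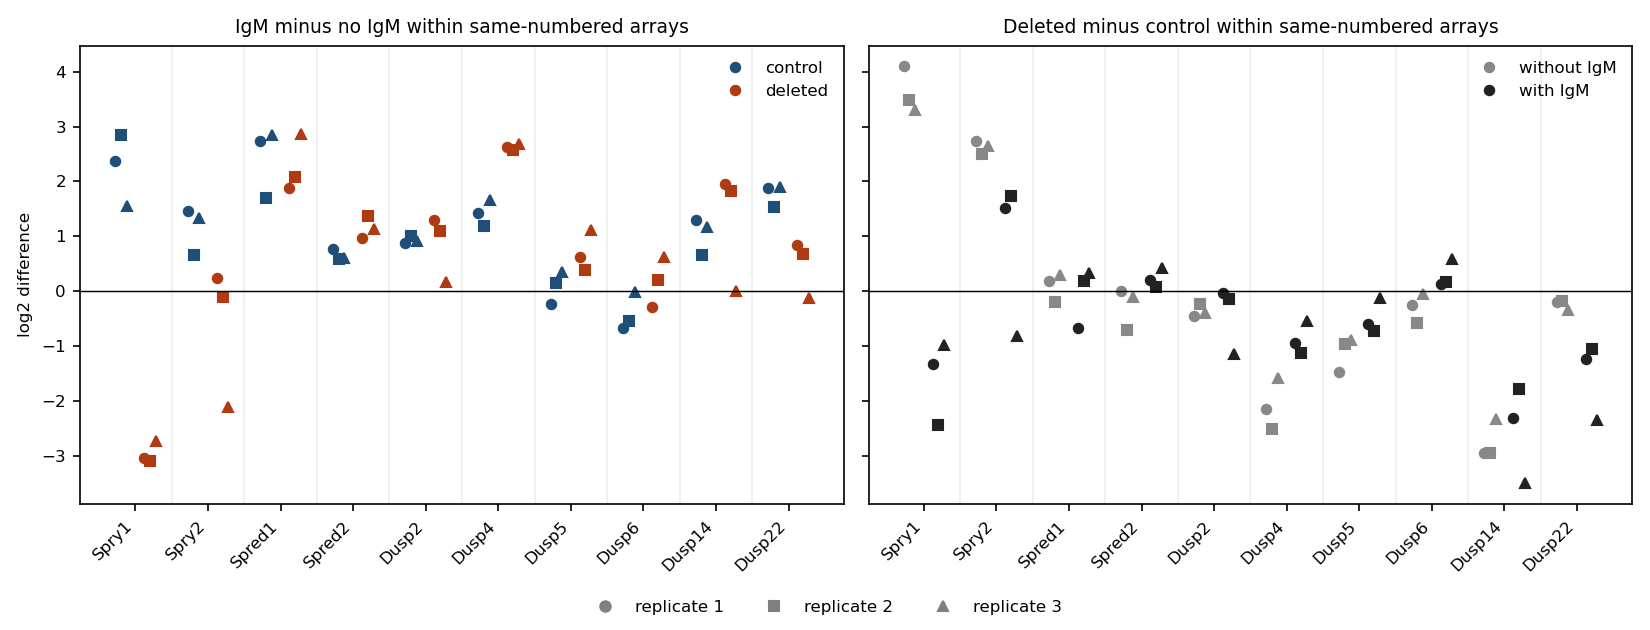
Log2 differences between arrays of the same replicate number, for IgM against no IgM in each genotype (left) and for deleted against control cells in each condition (right), with 1 point per replicate number. On the left the 3 control points of Spry1 lie between 1.55 and 2.84 and the 3 deleted points between -3.10 and -2.74, while the Dusp4 points lie above 0 in both genotypes and higher in deleted cells.

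Spry2, the related inhibitor that is a common early product of Erk signalling, was also higher in deleted cells without IgM. The log2 signal was 7.07, 7.98 and 7.97 in control replicates 1 to 3 without IgM and 9.81, 10.48 and 10.62 in deleted ones. With IgM it was 8.53, 8.63 and 9.31 in control cells and 10.04, 10.37 and 8.50 in deleted cells. The unstimulated groups did not overlap, and with IgM deleted replicate 3 fell below all 3 control arrays while the other deleted arrays lay above them. The difference without IgM was 6.20-fold (log2 2.63 ± 0.48, SE; adjusted p = 0.0156). It was 2.74, 2.50 and 2.65 between same-numbered arrays. The call was lost without control replicate 1, deleted replicate 2 or deleted replicate 3 of the unstimulated arrays (adjusted p = 0.0664 to 0.0779), with the log2 difference at 2.33 to 2.88 over all fits that left out 1 array. It was also lost without all arrays of replicate 1 or of replicate 2 (adjusted p = 0.238 to 0.344).

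With IgM the genotype difference of Spry2 was 0.81 ± 0.48 (adjusted p = 0.529), or 1.38 (adjusted p = 0.131) without deleted replicate 3. With the block and without that array together it was 1.57 (adjusted p = 0.00333). IgM changed Spry2 by 1.15 ± 0.48 in control cells (adjusted p = 0.127). The same size was called without deleted replicate 3 with IgM (adjusted p = 0.025), and with the block as well (adjusted p = 0.000514). In deleted cells the change was -0.67 (adjusted p = 0.371), and -0.10 (adjusted p = 0.896) without replicate 3. The interaction was -1.82 ± 0.67 (adjusted p = 0.968 from limma, unadjusted p = 0.0207), and -1.25 (adjusted p = 1) without that array. A second Spry2 probe set read 3.71 to 4.51 on the 12 arrays, barely above the level of the filter, and its genotype difference without IgM was 0.41 (adjusted p = 0.599). The 2 probe sets of Spry2 therefore differ in whether the gene is called.

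Spred1, which encodes a Sprouty-related protein that blocks the activation of Raf and recruits neurofibromin to the membrane, rose with IgM in both genotypes and gave no call between them. Control cells read 6.24, 5.35 and 4.80 without IgM and 8.98, 7.04 and 7.64 with it. Deleted cells read 6.43, 5.15 and 5.09 without IgM and 8.30, 7.23 and 7.97 with it. In both genotypes all stimulated arrays lay above all unstimulated ones. The rise was 5.36-fold in control cells (log2 2.42 ± 0.56, SE; adjusted p = 0.0132) and 4.85-fold in deleted cells (2.28 ± 0.56, adjusted p = 0.0186). The genotype difference was 0.09 ± 0.56 without IgM (adjusted p = 1) and -0.05 ± 0.56 with it (adjusted p = 0.972). The latter was -0.12 (adjusted p = 0.991) without deleted replicate 3. The interaction was -0.15 (adjusted p = 0.978), and -0.21 (adjusted p = 1) without that array. These standard errors leave room for a difference in either direction. The call in control cells was lost without control replicate 3 without IgM (adjusted p = 0.0569), and that in deleted cells without deleted replicate 2 or 3 without IgM (adjusted p = 0.0679 to 0.0699). Without deleted replicate 3 with IgM the rise in deleted cells was 2.21 (adjusted p = 0.0418). Leaving out all arrays of replicate 2 or of replicate 3 also ended both calls (adjusted p = 0.0981 to 0.108 for control and 0.142 to 0.156 for deleted cells).

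Spred1 had the most probe sets of the 10 genes, 8, of which 6 passed. In control cells the IgM response of the 6 ranged from 1.46 to 3.35 log2 units and all 6 were called. In deleted cells it ranged from 1.69 to 3.58 and 5 of 6 were called, the other at 1.76 (adjusted p = 0.0712). The probe set with the largest response read 3.35 ± 0.21 (SE) higher with IgM in control cells (adjusted p = 2.75e-05) and 3.58 ± 0.21 higher in deleted cells (adjusted p = 1.27e-05). None of the 6 was called between the genotypes or for the interaction. The probe sets differ in how far they respond, and all 6 moved the same way.

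**Figure D3:**
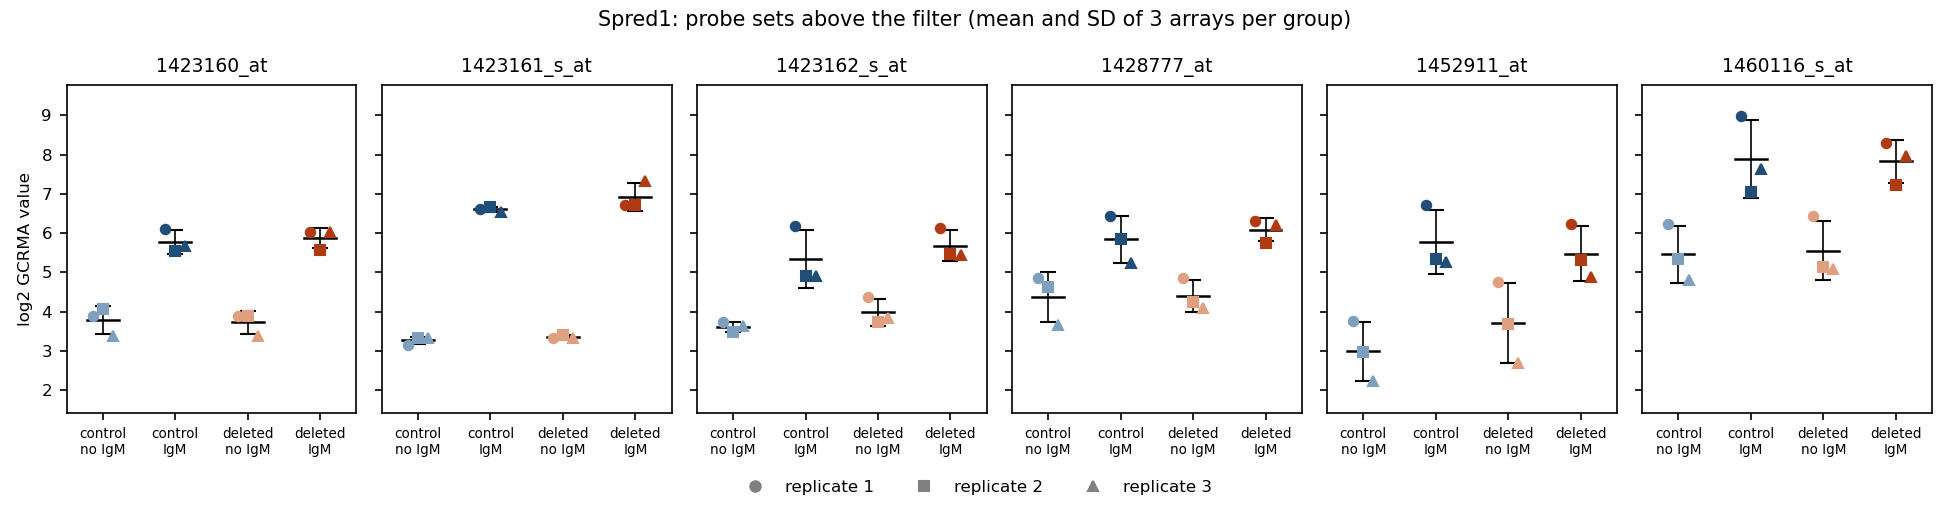
Log2 signal of the 6 Spred1 probe sets that passed the filter, 1 panel each, on the 12 arrays by group, with a line at the mean and error bars of 1 SD (n = 3). In every panel the IgM groups lie higher than the groups without IgM, by mean differences of 1.46 to 3.35 in control and 1.69 to 3.58 in deleted cells, and levels are not compared between panels.

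Spred2, a paralogue of Spred1, was read by 1 passing probe set of 5 and moved less. Control cells read 5.24, 5.74 and 5.21 without IgM and 6.00, 6.33 and 5.81 with it, and deleted cells read 5.24, 5.03 and 5.10 without IgM and 6.21, 6.40 and 6.24 with it. Stimulated and unstimulated arrays did not overlap in either genotype. IgM raised Spred2 by 1.16 ± 0.22 log2 units (SE), or 2.24-fold, in deleted cells (adjusted p = 0.00458), and by 1.18 (adjusted p = 0.00438) without replicate 3. That call was lost without all arrays of replicate 1 or of replicate 2 (adjusted p = 0.0784 to 0.121). In control cells the difference was 0.65 ± 0.22 (adjusted p = 0.0594), and it was called with the replicate block (adjusted p = 0.0188). It was also called without control replicate 2 without IgM and without deleted replicate 3 with IgM (adjusted p = 0.0292 to 0.0401). The interaction was 0.51 (adjusted p = 0.968), and 0.53 (adjusted p = 1) without deleted replicate 3, so the responses were not shown to differ. The genotype differences were -0.27 without IgM (adjusted p = 0.972) and 0.24 with it (adjusted p = 0.635), the latter 0.26 (adjusted p = 0.822) without that array.

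Among the MAP kinase phosphatases, Dusp4 had the widest range over the groups, with means from 8.91 to 12.42. Dusp4 is a nuclear phosphatase of Erk, Jnk and p38. Without IgM its log2 signal was 10.70, 11.39 and 10.89 in control and 8.56, 8.87 and 9.31 in deleted cells. With IgM it was 12.13, 12.58 and 12.55 in control and 11.18, 11.45 and 12 in deleted cells. Deleted arrays lay below control arrays in both conditions, and stimulated arrays above unstimulated ones in both genotypes. The stimulated deleted arrays overlapped the unstimulated control ones.

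The genotype difference of Dusp4 without IgM was 4.23-fold lower (log2 -2.08 ± 0.29, SE; adjusted p = 0.00347). With IgM it was -0.87 ± 0.29 (adjusted p = 0.247), called with the replicate block (adjusted p = 0.0461), and -1.10 (adjusted p = 0.11) without deleted replicate 3. IgM raised Dusp4 2.68-fold in control cells (1.42 ± 0.29, adjusted p = 0.00723) and 6.19-fold in deleted cells (2.63 ± 0.29, adjusted p = 0.000351). Between same-numbered arrays the rise was 1.42, 1.19 and 1.66 in control and 2.62, 2.58 and 2.69 in deleted cells, so the 3 deleted pairs all exceeded the control pairs. The interaction of 1.21 ± 0.42 did not pass the adjustment over all probe sets (adjusted p = 0.968 from limma, unadjusted p = 0.0146). Without deleted replicate 3 the rise in deleted cells was 2.40 (adjusted p = 0.000527) and the interaction 0.98 (adjusted p = 0.962). The IgM response in deleted cells was called under all 27 alternatives. The genotype difference without IgM was called under 25 and not without all arrays of replicate 1 or of replicate 2 (adjusted p = 0.085 to 0.32). Leaving out the same arrays ended the call for IgM in control cells (adjusted p = 0.0697 to 0.127).

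Dusp2, a nuclear phosphatase first known from activated lymphocytes, read 11.65, 11.75 and 11.77 in control cells without IgM and 12.52, 12.76 and 12.68 with it. Deleted cells read 11.20, 11.51 and 11.37 without IgM and 12.49, 12.62 and 11.54 with it. All stimulated control arrays lay above all unstimulated ones, and the same held in deleted cells, where replicate 3 with IgM was only 0.17 above replicate 3 without it. IgM raised Dusp2 1.90-fold in control cells (log2 0.93 ± 0.27, SE; adjusted p = 0.0352). In deleted cells the difference was 0.86 ± 0.27 (adjusted p = 0.0512). It was called with the replicate block (adjusted p = 0.0224) and, at 1.19, without deleted replicate 3 with IgM (adjusted p = 0.000801). The call in control cells was lost when any of the 6 control arrays or unstimulated deleted replicate 2 was left out (adjusted p = 0.0509 to 0.108), with the difference at 0.88 to 0.99. It was also lost without all arrays of replicate 1 or of replicate 2 (adjusted p = 0.219 to 0.3). The genotype difference without IgM was -0.37 (adjusted p = 0.923), where the arrays did not overlap, and it was called with the block and without deleted replicate 3 with IgM together (adjusted p = 0.0214). With IgM it was -0.44 (adjusted p = 0.542), or -0.03, -0.14 and -1.14 between same-numbered arrays, and -0.10 (adjusted p = 0.937) without deleted replicate 3. The interaction was -0.07 with that array and 0.27 without it (adjusted p = 1).

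Dusp5 encodes a nuclear phosphatase of Erk whose gene is a known target of serum response factor, the reader of the CArG boxes shown above. It read 9.60, 9.63 and 9.03 in control cells without IgM and 9.37, 9.77 and 9.37 with it, and 8.13, 8.66 and 8.14 in deleted cells without IgM and 8.77, 9.05 and 9.25 with it. Deleted arrays lay below control arrays in both conditions. The genotype difference without IgM was -1.11 ± 0.25 (SE; adjusted p = 0.0545), which missed the threshold, and it was called with the replicate block (adjusted p = 0.0151) and without deleted replicate 3 with IgM (adjusted p = 0.0285). With IgM it was -0.48 (adjusted p = 0.495), -0.59 (adjusted p = 0.437) without deleted replicate 3, and -0.71 (adjusted p = 0.027) with the block and without that array. The IgM response was 0.08 (adjusted p = 0.89) in control cells and 0.71 (adjusted p = 0.0814) in deleted cells, where the block gave a call (adjusted p = 0.0268). That response was 0.60 (adjusted p = 0.139) without deleted replicate 3, and 0.48 (adjusted p = 0.0293) with the block as well. The interaction was 0.63 (adjusted p = 0.968), and 0.51 (adjusted p = 1) without that array.

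Dusp6, the cytoplasmic phosphatase specific for Erk and a widely used readout of its activity, gave no call in any of the 5 comparisons in the main fit. It read 8.66, 7.75 and 8.06 in control cells without IgM, 7.99, 7.21 and 8.04 with it, 8.40, 7.18 and 8.01 in deleted cells without IgM and 8.12, 7.38 and 8.63 with it. All 4 groups overlapped, and replicate 2 was the lowest in each of them. The IgM response was -0.41 (adjusted p = 0.588) in control and 0.18 (adjusted p = 0.805) in deleted cells. The genotype difference was -0.29 (adjusted p = 1) without IgM and 0.30 (adjusted p = 0.768) with it. Without deleted replicate 3 with IgM, the response in deleted cells was -0.11 (adjusted p = 0.899), the genotype difference with IgM 0.00 (adjusted p = 1) and the interaction 0.30 in place of 0.59 (adjusted p = 1). With the block and without that array the response of control cells, -0.41, was called (adjusted p = 0.0441). The group SDs were 0.46 to 0.63 (n = 3), larger than any of these IgM responses and genotype differences.

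Dusp14, an atypical phosphatase known in T cells as an inhibitor of antigen receptor signalling, was lower in deleted cells with and without IgM. It read 6.66, 6.42 and 5.79 in control cells without IgM and 3.70, 3.46 and 3.46 in deleted ones. With IgM it read 7.95, 7.07 and 6.96 in control and 5.64, 5.28 and 3.46 in deleted cells. No deleted array reached the lowest control array of the same condition. The lowest value, 3.46, was shared within 0.01 by 3 arrays, 2 unstimulated deleted arrays and deleted replicate 3 with IgM, so the folds at this end are compressed. Without IgM the difference was 6.74-fold (log2 -2.75 ± 0.51, SE; adjusted p = 0.0175) and with IgM 5.79-fold (-2.53 ± 0.51, adjusted p = 0.044). Without deleted replicate 3 with IgM these were -2.75 (adjusted p = 0.000935) and -1.86 (adjusted p = 0.0322).

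Between same-numbered arrays the Dusp14 difference was -2.96, -2.96 and -2.34 without IgM. With IgM its size varied more, at -2.31, -1.79 and -3.50, the last from deleted replicate 3. The call of the difference depended on single arrays. Without IgM it was lost in 5 of the 12 fits that left out 1 array, namely control replicate 1 or 2 or deleted replicate 1, 2 or 3 of the unstimulated arrays (adjusted p = 0.0584 to 0.0875). With IgM it was lost in 10 of 12, all but those without deleted replicate 1 or replicate 3 with IgM (adjusted p = 0.0614 to 0.174). Leaving out all arrays of a replicate number ended the call without IgM for replicates 1 and 2 (adjusted p = 0.201 to 0.497) and with IgM for all 3 (adjusted p = 0.0778 to 0.489). The IgM response was 1.04 (adjusted p = 0.2) in control and 1.25 (adjusted p = 0.12) in deleted cells. Both were called with the replicate block (adjusted p = 0.0451 and 0.0206). Without deleted replicate 3 with IgM the response was 1.04 (adjusted p = 0.0276) in control and 1.92 (adjusted p = 0.00364) in deleted cells. The interaction was 0.22, and 0.89 (adjusted p = 1) without that array.

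Dusp22, an atypical phosphatase known as a regulator of Jnk signalling and of the antigen receptor kinase Lck in T cells, was lower in deleted cells with IgM. It read 8.87, 8.85 and 8.68 in control cells without IgM and 8.67, 8.67 and 8.33 in deleted ones. With IgM it read 10.75, 10.39 and 10.57 in control and 9.51, 9.34 and 8.20 in deleted cells. The stimulated control arrays lay above every other array. IgM raised Dusp22 3.41-fold in control cells (log2 1.77 ± 0.31, SE; adjusted p = 0.00315). In deleted cells the difference was 0.46 ± 0.31 (adjusted p = 0.342), and 0.87 (adjusted p = 0.00718) without replicate 3. It was 0.81 (adjusted p = 0.00141) with the block and without that array. With IgM, Dusp22 was 2.93-fold lower in deleted cells (-1.55 ± 0.31, adjusted p = 0.044), and -1.14 (adjusted p = 0.0176) without that array.

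The call of Dusp22 between the stimulated groups was lost in 10 of the 12 fits that left out 1 array, all but those without deleted replicate 1 or replicate 3 with IgM (adjusted p = 0.0606 to 0.173), and in all 3 that left out a replicate number (adjusted p = 0.0674 to 0.489). The log2 difference in the former was -1.80 to -1.14. Leaving out all arrays of replicate 1 or of replicate 2 ended the call for IgM in control cells (adjusted p = 0.068 to 0.0999). Between same-numbered arrays the IgM response was 1.88, 1.54 and 1.89 in control and 0.84, 0.67 and -0.12 in deleted cells. The interaction of -1.31 ± 0.44 did not pass the adjustment (adjusted p = 0.968 from limma, unadjusted p = 0.013), and was -0.90 (adjusted p = 0.457) without deleted replicate 3, so the smaller response of deleted cells is not shown by that test. Without IgM the arrays of the genotypes did not overlap, and the difference was -0.24 (adjusted p = 1).

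**Figure D4:**
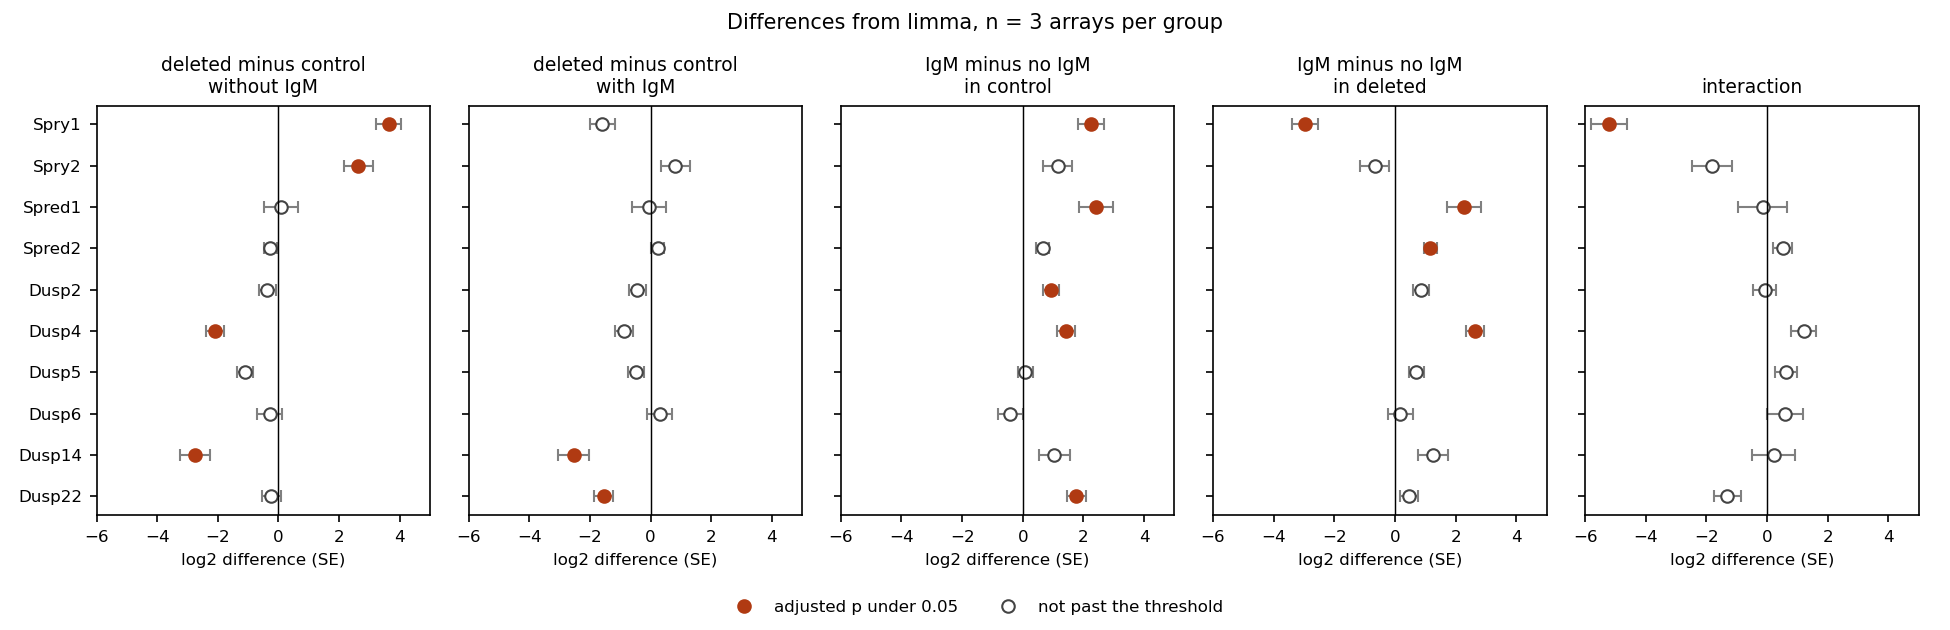
Log2 differences of the 10 genes with their standard errors from the limma fit, for the genotype without and with IgM for IgM in control and deleted cells, and for the interaction; filled points passed an adjusted p of 0.05. Spry1 lies at 3.63 for the genotype without IgM and at -2.96 for IgM in deleted cells, and Dusp4 and Dusp14 lie at -2.08 and -2.75 for the genotype without IgM.

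Counted without the test, 7 of the 10 genes had genotype groups that did not overlap without IgM: Spry1 and Spry2 higher and Dusp2, Dusp4, Dusp5, Dusp14 and Dusp22 lower in deleted cells. Dusp22 was separated only narrowly, with its highest deleted array at 8.67 and its lowest control array at 8.68. Of all probe sets 17.2% did not overlap (8.03% higher and 9.12% lower). With IgM 5 did not overlap, Spry1, Dusp4, Dusp5, Dusp14 and Dusp22, all lower in deleted cells, against 16.1% of all probe sets (10.2% higher and 5.85% lower). For the IgM response it was 8 genes in control cells, all but Dusp5 and Dusp6 and all higher with IgM, against 43.1% of all probe sets (21.2% higher). In deleted cells it was 6, with Spred1, Spred2, Dusp2, Dusp4 and Dusp5 higher and Spry1 lower, against 32.5% (17.8% higher and 14.8% lower). Ranked by mean, unstimulated deleted cells were the lowest group for Spred2 and for all Dusp genes but Dusp6, and the highest for Spry1 and Spry2. In these orders, stimulated deleted and unstimulated control arrays were neighbours that overlapped for Spry1 (at 3.42), Dusp2, Dusp4, Dusp5, Dusp6 and Dusp22.

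For the 3 genes with the widest range of group means, the genes of most similar pattern were found as those with the smallest root mean square difference of the 4 centred group means, among 8999 genes. For Dusp14, with a range of 3.79 log2 units, these were the chemokine genes Ccl4 (0.35) and Ccl3 (0.41) and the cytokine gene Il10 (0.42). For Spry1, with a range of 3.63, they were Coprs (0.60), which encodes a cofactor of the arginine methyltransferase Prmt5, Pdcd1lg2 (0.64), which encodes a ligand of the receptor PD-1, and Cenpv (0.75), so no candidate lay as close to Spry1 as to the other 2. For Dusp4, with a range of 3.51, they were Cth (0.16), an enzyme of cysteine synthesis, the nucleoside transporter gene Slc29a1 (0.17) and the transcription factor gene Zbtb46 (0.18). This likeness describes 4 group means only.

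Other genes of the same pathways were read from fixed lists. For these lists, the shares of all probe sets called were 2.03% for the genotype without IgM and 1.19% with IgM. IgM raised 8.24% and lowered 9.91% of all probe sets in control cells. In deleted cells it raised 9.95% and lowered 7.04%. Of 16 further Sprouty, Spred and MAP kinase phosphatase genes, 10 were measured, and none was called between the genotypes. Dusp16 gave 0.89 (adjusted p = 0.174) and Dusp1 0.62 (adjusted p = 0.22) without IgM. With IgM in control cells 1 rose, Dusp3 (log2 1.35, adjusted p = 0.0161). In deleted cells Dusp3 rose (1.34, adjusted p = 0.018) and Dusp19 fell (-2.70, adjusted p = 0.0297). Their median IgM response was -0.05 in control and -0.24 in deleted cells.

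The Ras-Erk cascade itself was read by 17 of 22 genes. None was called between the unstimulated genotypes, and with IgM 1 was, Rasa3, which encodes a Ras GTPase-activating protein (1.88, adjusted p = 0.024). IgM raised 1 and lowered 3 in control cells. The scaffold gene Ksr1 rose (0.83, adjusted p = 0.0244), and Rasa3 (-3.83, adjusted p = 9.03e-05) and the Ras exchange factor genes Rasgrp3 (-2.24, adjusted p = 0.00221) and Rasgrp1 (-1.71, adjusted p = 0.00557) fell. In deleted cells it raised 1 and lowered 4, with Rasa3 at -2.48 (adjusted p = 0.000895) and Rasgrp1 at -1.50 (adjusted p = 0.0117). Of the Jnk and p38 cascade, 15 of 17 genes were measured. Map2k6, a kinase that activates p38, was higher in deleted cells by 4.79 without IgM (adjusted p = 3.42e-05) and by 3.11 with it (adjusted p = 0.00291). The p38 kinase gene Mapk14 was higher with IgM (1.24, adjusted p = 0.0472). No other gene of this list was called between the genotypes. IgM raised 2 and lowered 3 of the 15 in each genotype, with Mapk11 at -3.10 (adjusted p = 0.00304) in control and -2.21 (adjusted p = 0.0178) in deleted cells.

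Transcripts known to be switched on by Erk were read by 17 of 20 genes. IgM raised 8 and lowered 1 in control cells (median 0.83) and raised 9 in deleted cells (median 1.21). Over all probe sets it called 18.2% in control cells (median -0.01) and 17.0% in deleted cells (median 0.02). Egr2 rose by 2.79 (adjusted p = 0.000319) and 3.86 (adjusted p = 7.38e-05) in control and deleted cells, and Egr1 by 2.22 (adjusted p = 0.0016) and 3.04 (adjusted p = 0.00038). Fosl1 rose by 3.23 (adjusted p = 0.00133) and 2.99 (adjusted p = 0.00231), and Fosl2 by 3.06 (adjusted p = 0.000158) and 2.81 (adjusted p = 0.000264). Between the genotypes 1 of the 17 was called, Elk3 without IgM (-1.01, adjusted p = 0.0442), and none for the interaction. Elk3 was also the gene of this list that IgM lowered in control cells (-1.46, adjusted p = 0.00136). The median genotype difference of the 17 was -0.63 without IgM and -0.29 with it, against -0.04 and 0.05 over all probe sets. Among 19 of 20 other inhibitors of receptor signalling, none was called between the genotypes. IgM raised 2 and lowered 4 in control cells, where Rgs1 rose by 3.42 (adjusted p = 0.000285) and the ubiquitin ligase gene Cblb fell by 2.14 (adjusted p = 0.00018). Deleted cells had 3 raised and 2 lowered, with Rgs1 at 1.82 (adjusted p = 0.00822) and Cblb at -1.33 (adjusted p = 0.00235).

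Markers of other cells differed between the genotypes too. Of 7 B cell markers measured, none was called between the genotypes, and the log2 of their summed signal was 15.99 to 16.15 on the 6 unstimulated arrays and 14.80 to 15.32 on the stimulated ones. The summed signal of 5 measured macrophage and monocyte markers of 8 was 7.71 to 9.10 in control and 9.54 to 11.58 in deleted cells without IgM, and 7.43 to 8.81 and 8.85 to 11.24 with IgM. Csf1r was called higher in deleted cells in both conditions (3.69, adjusted p = 0.0245, and 3.99, adjusted p = 0.0256) and Adgre1 lower without IgM (-1.45, adjusted p = 0.0437), while Itgam, Fcgr1 and Mertk did not pass the filter. For 7 of 8 neutrophil markers the sum was 8.14 to 11.26 in control and 11.35 to 14.19 in deleted cells without IgM, and 7.66 to 10.41 and 10.73 to 13.42 with IgM, with none called between the genotypes and Ly6g not passing. Of 8 T cell markers, Cd3e, Cd4, Cd8a, Cd8b1 and Lck did not pass, and the other 3 summed to 6.39 to 8.04 in control and 7.51 to 9.10 in deleted cells without IgM. Of 6 NK cell markers 4 were measured, with Klrk1 called higher without IgM (1.56, adjusted p = 0.0175). Their sum was 6.77 to 8.48 in control and 8.10 to 9.24 in deleted cells without IgM, and 6.32 to 8.09 and 7.13 to 8.72 with it. Of 5 erythroid markers 1 was measured, Alas2, at 5.77 to 6.57 in control and 6.82 to 9.71 in deleted cells without IgM, and 5.62 to 5.89 and 6.47 to 8.34 with it. Its differences of 2.39 (adjusted p = 0.142) and 1.93 (adjusted p = 0.282) were not called. Of 5 dendritic cell markers 3 were measured and none was called between the genotypes. All 5 plasma cell markers were measured, with Irf4 lower without IgM (-0.89, adjusted p = 0.0337) and Prdm1 higher with it (1.56, adjusted p = 0.0256). The macrophage, neutrophil and erythroid levels thus did not overlap between the genotypes and were higher in deleted cells in both conditions. Their part in the genotype differences of Spry1, Spry2, Dusp4, Dusp14 and Dusp22 was not tested. In such bulk samples fewer cells of a type and less RNA per cell cannot be told apart.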

How the data were processed

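RNA of 12 samples was hybridised to Affymetrix arrays. The files hold deposited log2 values. GCRMA is the tool named, per the submitters' processing notes, with its version not given in the sources used here. GCRMA corrects background from probe sequence, normalizes between arrays and summarises probes into probe sets. Arrays carry no read depth, and their number limits the precision. Of 45101 probe sets 64 were controls. The platform annotation gave 1 gene for 34945 of the others, several for 932 and none for 9160. Current symbols were found by gene identifier for 34741 of them.

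Probe sets above 4 on at least 3 arrays, 19187 in all, entered 1 linear model per probe set (R 4.3.3; limma 3.58.1 with eBayes), 1 mean per group of 3, two-sided, with Benjamini-Hochberg adjustment and a threshold of 0.05. The fit was tested on simulated data. The replicate numbers come from the labels. Deviations from group means correlated by 0.242 to 0.838 in the 12 pairs of same-numbered arrays and by at most 0.219 otherwise. The main fit did not use this pairing. The numbers served as a block in alternative fits and for the differences between same-numbered arrays. For the genotype without IgM the block called 1028 probe sets, against 389 in the main fit. Alternatives changed the filter, probe set choice, normalization, variance model, array weights, samples fitted, replicate block, threshold and arrays left out.

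The members and all gene, marker and motif lists were chosen with earlier results of these data known. All members are named. Of each other list, up to 4 called genes with the largest change were eligible to be named in a comparison, or the 2 with the smallest p where none was called, and the text names some of them. Genes of similar pattern are the 3 closest to each of the 3 widest-ranging members.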

Additional observations from a re-analysis of the deposited data

Results flagged for a closer look

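The IgM response of Spry1 differed between the genotypes by a test of the difference itself. IgM raised its log2 signal by 2.26 in control cells and lowered it by -2.96 in deleted cells, which gave an interaction of -5.22 (adjusted p = 0.00647 from limma). All 3 same-numbered pairs moved up in control cells and all 3 moved down in deleted cells, which follows from groups that did not overlap. Over the alternatives the adjusted p was 0.00104 to 0.672, and 22 of 26 called it. Spry1 passed the filter only through stimulated control and unstimulated deleted arrays, whose high values make up this interaction. With no filter the call was lost (adjusted p = 0.0579 from limma). Groups of 3 arrays were too small to test single arrays as outliers.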

How the results depend on the processing

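Of 1340 log2 differences of the members under the alternatives, 1170 kept their direction and their side of the threshold. Another 89 lost a call, 49 gained a call and 32 changed sign, none of the last called on either side (lowest adjusted p 0.424). The cause was not tested. The number of members called for the genotype without IgM was 4, and 2 with no filter, 2 at an adjusted p under 0.01 and 0 to 5 when arrays were left out. For the genotype with IgM it was 2, and 0 with no filter, with median-centred arrays, with only the 6 arrays of the comparison and at the stricter threshold, 5 with array weights, 4 with the replicate block, 6 with the block and without deleted replicate 3, and 0 to 2 when arrays were left out. For IgM in control cells it was 5, and 3 with no filter, 8 with array weights, 9 with the block and without deleted replicate 3, 3 at the stricter threshold, and 0 to 8 when arrays were left out. For IgM in deleted cells it was 4, and 7 with array weights, 7 with the replicate block, 8 with the block and without replicate 3, and 2 to 7 when arrays were left out. For the interaction it was 1, and 0 with no filter and 0 to 1 when arrays were left out. The replicate block changed no call other than those given beside the results.

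Signs turned for these differences. Spry2 with IgM in deleted cells, -0.67, was 0.08 with the block and without replicate 3, and -1.12 to 0.06 when arrays were left out. Spred1 between the genotypes with IgM, -0.05, was 0.31 with the probe set of largest variance and -0.48 to 0.50 when arrays were left out, and without IgM, 0.09, it was -0.34 to 0.48. The Spred1 interaction, -0.15, was 0.23 with that probe set and -0.57 to 0.40. The Dusp2 interaction, -0.07, was 0.19 with array weights, 0.28 with the block and without replicate 3, and -0.32 to 0.27. Dusp5 with IgM in control cells, 0.08, was -0.11 to 0.24. Dusp6 with IgM in deleted cells, 0.18, was -0.03 with array weights, -0.06 with the block and without replicate 3, and -0.16 to 0.51, and between the genotypes without IgM, -0.29, it was -0.56 to 0.05. The Dusp14 interaction, 0.22, was -0.26 to 0.91. Low values toward the floor of 2.23 limit Spry1 in unstimulated control and stimulated deleted cells, and Dusp14 in deleted cells.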
